A study of Homo sapiens with 17 samples.

Results

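The circadian clock genes examined here were *PER1*, *PER2*, *PER3*, *CRY1*, *CRY2*, *BHLHE40*, *NR1D1*, *NR1D2*, *DBP* and *ARNTL*, chosen by symbol as a list of core clock components and their direct targets. All 10 were among the 19222 genes of the 1 h TimeLapse sequencing (TL-seq) table, and 8 of them were listed in the 2 h tables, which hold 9982 genes. HEK-293T, a transformed line of human embryonic kidney cells, was used with a WT genotype throughout. In the 1 h experiment, 3 libraries came from untreated cells and 3 from cells given 1.8 µM emetine, an alkaloid that blocks the movement of ribosomes along mRNA, all in the presence of 500 µM 4-thiouridine (s4U). A further untreated library and a further emetine-treated library were made from cells without s4U. The 2 h experiment had 3 untreated libraries, 3 with 1.8 µM and 3 with 240 µM emetine, each with 250 µM s4U. The labels do not say whether replicates were separate cultures, so p-values measure the spread between these libraries, which may be technical.

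The mammalian clock is a transcriptional feedback loop. BMAL1, encoded by *ARNTL*, pairs with CLOCK on E-box sequences and activates the PER and CRY genes, whose proteins return to the nucleus and repress that pair. *BHLHE40* competes for the same E-boxes, the REV-ERB receptors encoded by *NR1D1* and *NR1D2* repress *ARNTL* through RORE sequences, and *DBP* activates genes through D-boxes. Several of these mRNAs are known for rapid turnover, which lets their levels follow transcription. The labels name no stimulus meant to synchronize the cells, and per the study's methods the medium, which held serum, was changed shortly before emetine was added.

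These regulatory sequences were looked up in the promoters of the members, because they are the letters through which the members act on one another. RefSeq promoters of GRCh38.p14, running from 250 bases before to 50 after each start, were found for all 10 genes. The E-box CACGTG, in capitals here, lay in the promoters of *BHLHE40*, *PER1* and *NR1D2*. The E-prime box CACGTT, read on either strand, lay in those of *PER2*, *CRY1*, *CRY2* and *NR1D1*. D-boxes (TTATGNAA or TTACGTAA) lay in those of *PER1*, *PER2*, *PER3* and *NR1D2*, and the RORE core TAGGTCA in those of *CRY2* and *ARNTL*. *DBP* held none of these, and the cyclic AMP element TGACGTCA was found in no member. Both strands were searched, and the same letters cannot be both an E-box and an E-prime box. One stretch of each kind is shown for the members whose RNA changed most or that the sequence is known to act on.
BHLHE40 E-box, chr3:4979187-4979224, plus strand: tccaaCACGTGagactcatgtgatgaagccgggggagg
PER1 E-box, chr17:8152545-8152604, minus strand: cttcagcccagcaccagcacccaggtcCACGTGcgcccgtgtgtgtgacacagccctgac
NR1D1 E-prime box, chr17:40100725-40100784, minus strand: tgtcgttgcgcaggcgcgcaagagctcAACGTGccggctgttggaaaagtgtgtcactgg
CRY2 E-prime box, chr11:45847260-45847319, plus strand: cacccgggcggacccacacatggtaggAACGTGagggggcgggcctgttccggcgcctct
PER2 D-box, chr2:238288595-238288624, minus strand: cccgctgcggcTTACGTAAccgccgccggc
ARNTL RORE core, chr11:13277809-13277838, plus strand: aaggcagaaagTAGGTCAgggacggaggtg

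Of all 27305 genes with a RefSeq promoter, 8.775% held the E-box, 6.438% the E-prime box, 4.248% a D-box and 2.289% the RORE core. A match is a description of the letters in these windows and not evidence of binding. In GENCODE 44, the *BHLHE40* and *NR1D1* stretches lie upstream of the annotated gene, that of *PER1* in an intron downstream of another start site, and those of *CRY2*, *PER2* and *ARNTL* in an exon of at least 1 transcript. The absence of a match in *DBP* says only that these letters are not in this window.

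TL-seq turns s4U into a base read as C where the genome has T, so reads from RNA made during the incubation carry T-to-C conversions. The 8 libraries held 27416189 to 48852046 reads, of which 81.1% to 82.3% were assigned to a gene. Conversions covered 0.802% to 1.06% of T positions with s4U and 0.0504% and 0.0521% without. Of 6 markers of HEK-293T cells, *VIM* and *NEFM* were found at 459 to 657 and 141 to 212 CPM (the reads of a gene scaled to a fixed total per library), *KRT18* and *INA* at 33.2 to 60.9 and 16.1 to 20.8 CPM, and *KRT8* and *PAX2* at 3.75 to 7.06 and 1.23 to 2.43 CPM. Of 5 markers of other cell types, the leukocyte markers *PTPRC* and *CD3E* were at 0 in all 6 libraries with s4U, and *ALB* and *PECAM1* were at most at 0.358 and 0.0717 CPM. The fibroblast marker *LUM* was at 0.90 to 1.32 CPM. Emetine replicate 3 stood apart: across genes, how far it lay above its group mean correlated with transcript length at a Spearman coefficient of 0.754. The coefficient was −0.676 and −0.671 in emetine replicates 1 and 2, and 0.101, 0.167 and −0.228 in untreated replicates 1 to 3. Deviations within a group cancel out for each gene, so the emetine values are not independent of one another. Of the 10 clock genes, 9 had their highest level of the 6 libraries in emetine replicate 3 and 1 its lowest, and 37.2% of all genes tested had their highest level there.

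In untreated cells, the clock transcripts differed widely in level and in turnover. Per kilobase of transcript, which allows genes to be compared, *CRY1* had the highest level at 14.7 ± 0.252 CPM per kb (SD, n = 3 libraries, as for each SD here), followed by *PER1* at 9.89 ± 0.346. *DBP* at 7.39 ± 1.32 and *NR1D2* at 6.57 ± 0.791 lay within their spread of each other, as did *CRY2* at 5.04 ± 0.147 and *BHLHE40* at 4.83 ± 0.470. *NR1D1* (3.33 ± 0.716), *ARNTL* (2.25 ± 0.0437), *PER2* (1.53 ± 0.0320) and *PER3* (0.720 ± 0.0456) followed, separated by more than their SDs. The median over 13498 genes with a known length was 7.09 CPM per kb, so 3 members lay above it.

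The share of RNA made within the hour (the fraction new) gives a half-life if levels are steady and labeling begins at once. *BHLHE40* had the shortest half-life of the 10, at 0.531, 0.421 and 0.490 h in untreated replicates 1 to 3. *NR1D1* followed at 0.826, 0.930 and 0.747 h, and *PER2* at 1.11, 0.931 and 0.816 h. These are among the short-lived RNAs of the cell, as 0.873%, 3.06% and 4.14% of the 10763 genes tested had a shorter half-life than *BHLHE40*, *NR1D1* and *PER2*. *CRY2* (1.34 ± 0.602 h), *PER1* (2.16 ± 0.262 h), *DBP* (2.73 ± 0.375 h) and *NR1D2* (3.11 ± 0.685 h) came next. *PER3* (3.43 ± 1.99 h), *ARNTL* (4.69 ± 1.50 h) and *CRY1* (9.02 ± 3.47 h) were the slowest of the members. Only *BHLHE40* was separated from its neighbor in this order by more than the SDs. The median of all genes was 5.65 h, so *CRY1* alone had a mean half-life above it, although its 3 values ran from 6.33 to 12.9 h.

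**Figure D1:**
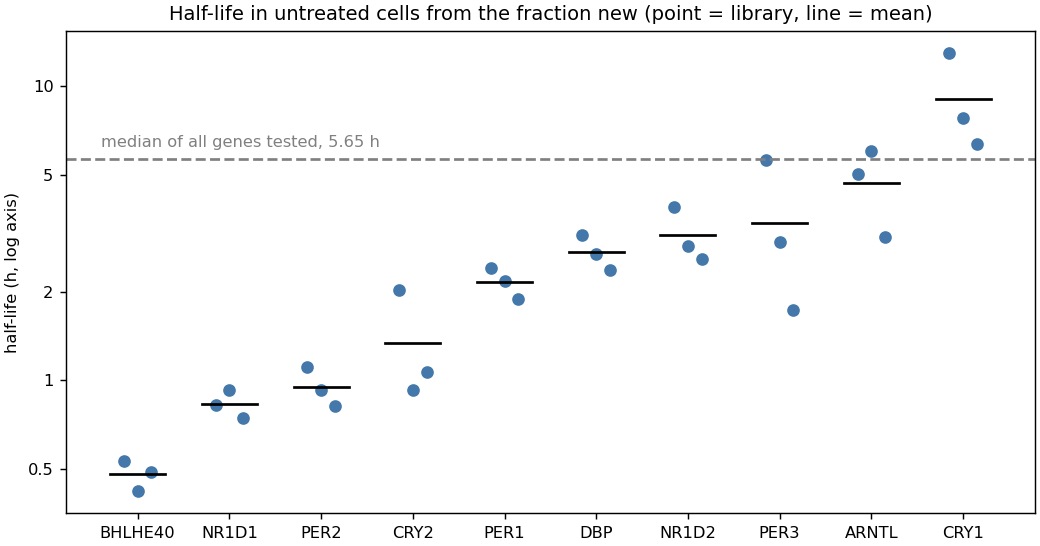
Half-lives of the 10 clock transcripts in untreated cells (h, log axis), computed from the fraction new of each of 3 libraries (points) with their mean (line) and the median of all genes tested (dashed). *BHLHE40*, *NR1D1* and *PER2* have means under 1 h, and *CRY1* has a mean of 9.02 h.

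AUUUA elements in the 3′ UTR are known to favor decay, and their number differed among the members. *BHLHE40* had 0 copies of ATTTA in the 1631 bases of its canonical GENCODE 44 3′ UTR, and *ARNTL* had 0 in 510 bases. *NR1D1* had 2 in 290 bases, *NR1D2* 14 in 3198 bases, *PER2* 5 in 2331 bases and *CRY1* 2 in 638 bases. The median over 12733 genes was 1.72 copies per kb of 3′ UTR, and *NR1D1* (6.90), *NR1D2* (4.38), *CRY1* (3.13), *PER3* (2.48) and *PER2* (2.15) were above it.

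The main question was whether low-dose emetine changed these RNAs within 1 h, and if so in the RNA made before or during the treatment. *BHLHE40* and *CRY2* passed as higher in level, calls that were each lost in 9 of 14 alternative settings, and no member passed as lower. *BHLHE40*, *NR1D1* and *DBP* had a lower fraction new, and the unlabeled, older RNA of *BHLHE40*, *NR1D1*, *PER2* and *CRY2* was more abundant. *PER1*, *CRY1*, *NR1D2* and *ARNTL* passed none of these tests. *PER3* did not pass for level and had too few reads for the tests of fraction new and unlabeled RNA.

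By edgeR's quasi-likelihood test over 13776 genes, 2 of 10 members were raised at a Benjamini-Hochberg adjusted p-value under 0.05, where 2.65% of all genes tested were raised, and 0 were lowered, where 0.0436% were. At an unadjusted p under 0.05, 5 of the 10 passed, where 21.9% of all genes did. All 10 estimates were positive, with a median log2 change of 0.36 against 0.03 over all genes, of which 54.0% were positive. The members were chosen with earlier results of these data known. Their counts and medians, here and below, are therefore a description and not independent support. With single libraries left out, the median of the members ran from 0.22 (emetine replicate 3) to 0.41 (untreated replicate 1). It was 0.23 with length and GC trends removed, against −0.05 over all genes. With DESeq2 size factors, 9 of the 10 estimates were positive. In bulk RNA, fewer cells of a type and less RNA per cell cannot be told apart. Values of the groups did not overlap in 6 members, all higher with emetine, as was so for 19.5% of all genes, while 15.2% were lower without overlap. DESeq2 raised 3 members, with *PER2* as the third, where it raised 6.59% of all genes. Scaling to spike-in reads shifted the median of all genes to 0.71 and that of the members to 1.06, and raised 0 members, where 0.436% of all genes were raised. Spike-in reads made up 0.667%, 0.480% and 0.728% of reads in untreated replicates 1 to 3. With emetine they made up 0.304%, 0.666% and 0.408%. These shares overlapped between the groups, and the shift rests on them.

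**Figure D2:**
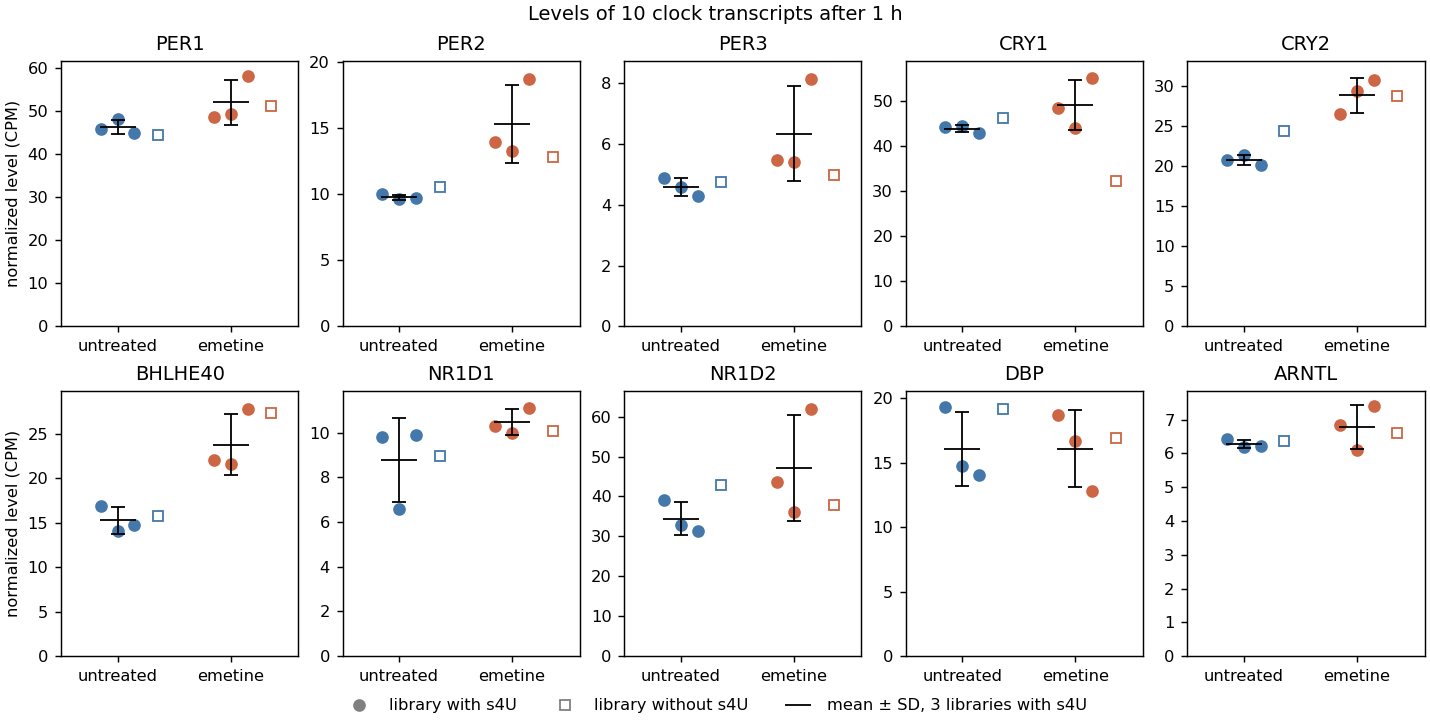
Normalized level (CPM) of each clock transcript in the 1 h libraries: filled circles are single libraries with s4U, open squares the libraries without s4U, and the bar gives the mean ± SD of 3 libraries. *BHLHE40*, *CRY2* and *PER2* lie higher in every emetine-treated library than in any untreated one, and the groups of *DBP* overlap.

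For the fraction new, 9 members had at least 100 reads in each library. By limma on the logit, 3 of the 9 were lower with emetine, where 4.83% of the 10763 genes tested were lower, and 0 were higher, where 0.214% were. The median change in logit of the 9 was −0.53, against −0.16 over all genes. At an unadjusted p under 0.05, 6 of the 9 passed, where 16.5% of all genes did. Of the 9 estimates 2 were positive, and 24.4% of those of all genes. The groups did not overlap in 5 of the 10 members, all lower with emetine, as was so for 16.8% of all genes tested, while 2.19% were higher without overlap.

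**Figure D3:**
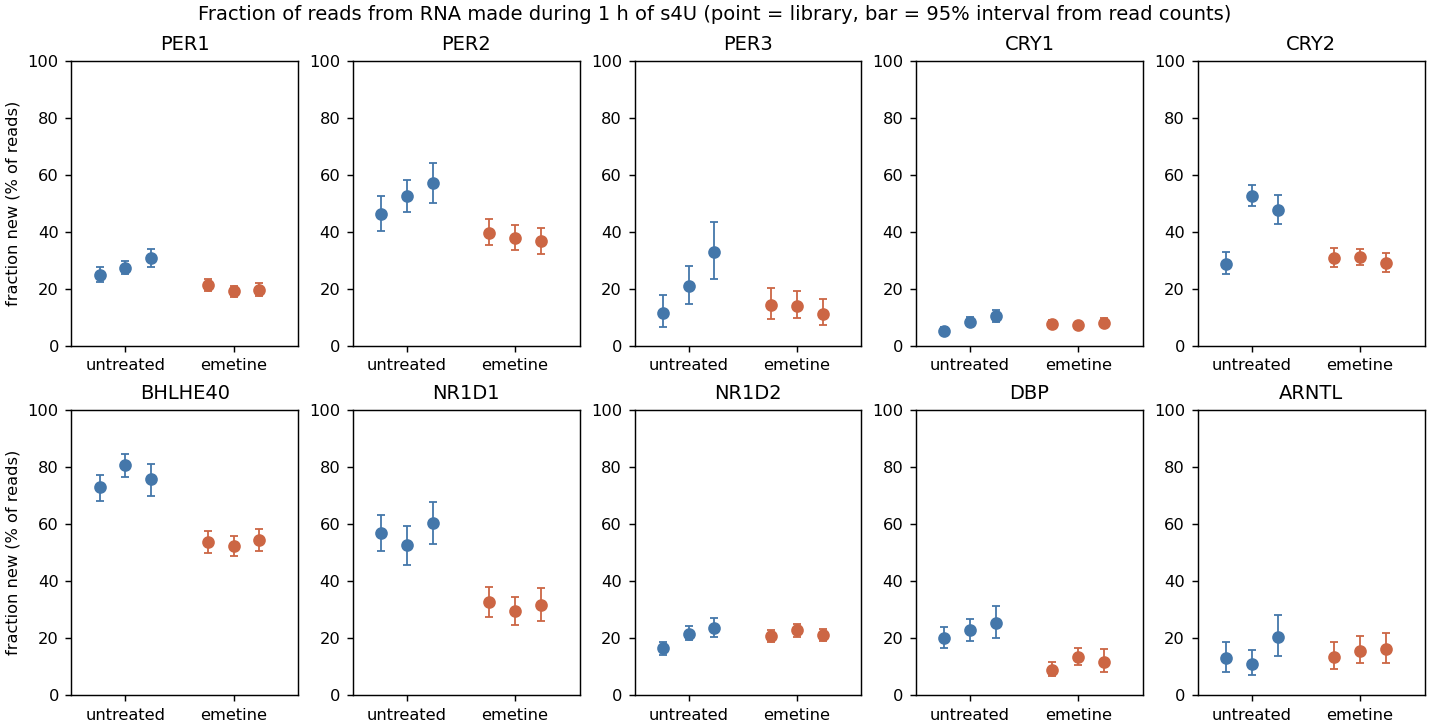
Fraction new (percent of reads from RNA made during the 1 h incubation) of each clock transcript: each point is a library and its bar the 95% interval from its read counts. *BHLHE40*, *NR1D1* and *DBP* are lower in all 3 emetine-treated libraries than in any untreated one, and *CRY1*, *NR1D2* and *ARNTL* overlap between the groups.

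Labeled RNA, the CPM multiplied by the fraction new, passed in no member, whereas 0.26% of all genes were higher and 0.632% lower. At an unadjusted p under 0.05, limma gave 2 of 9 members, *DBP* and *NR1D1*, both lower, where 12.2% of all genes passed in either direction. Unlabeled RNA, the remainder, was raised in 4 of 9 members and in 7.3% of all genes, and lowered in 0 members and 0.0929% of all genes. Its groups did not overlap in 6 of the 10 members, all higher, as in 23.9% of all genes. The median log2 change of the members was 0.11 in labeled and 0.40 in unlabeled RNA, against −0.14 and 0.04 over all genes. These values share their reads with the tests of level and fraction new and are not independent of them.

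**Figure D4:**
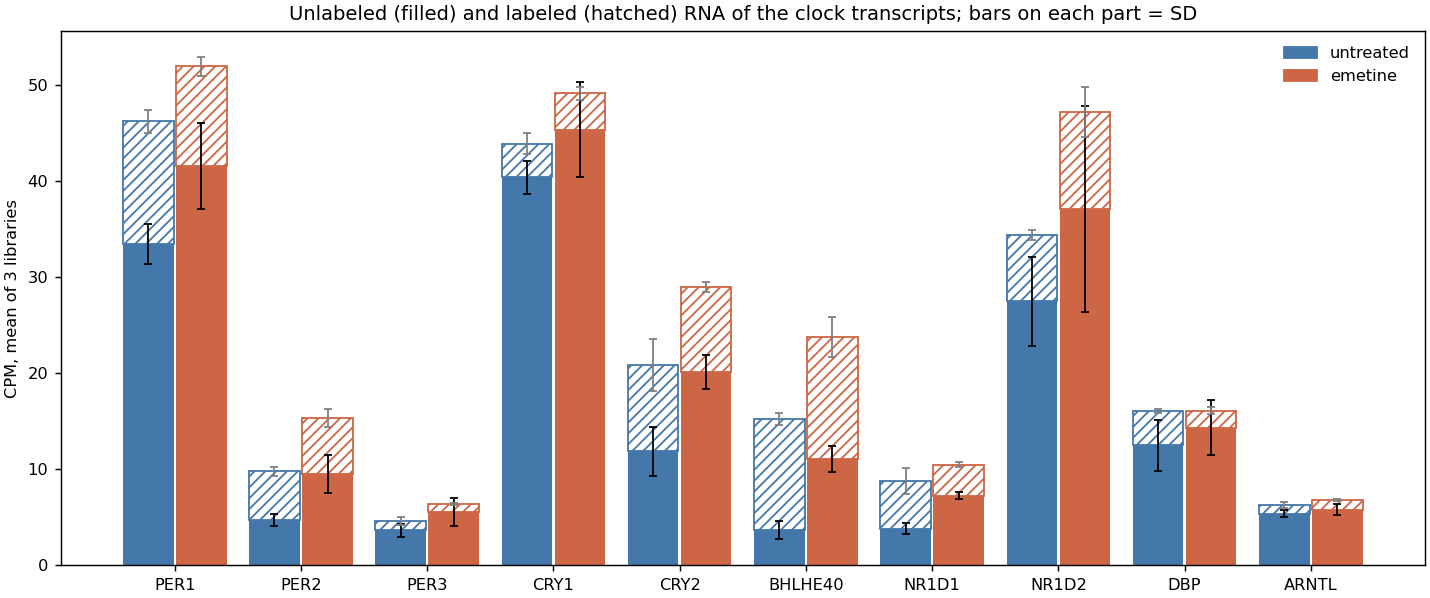
Mean unlabeled (filled) and labeled (hatched) RNA of each clock transcript in CPM, stacked to its total level, for 3 untreated (blue) and 3 emetine-treated (orange) libraries; error bars give the SD of each part. In *BHLHE40* the unlabeled part is 3.63 CPM untreated and 11.1 CPM with emetine, and the labeled part is 11.6 and 12.7 CPM.

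*ARNTL* (also named BMAL1, chr11:13276652-13387266, plus strand) encodes the activator of the loop. Its level was 6.41, 6.18 and 6.23 CPM in untreated replicates 1 to 3 and 6.85, 6.09 and 7.39 CPM with emetine. The groups overlapped, with a log2 change of 0.11 ± 0.14 (SE) and an edgeR adjusted p-value of 0.654. Its fraction new was 12.9%, 10.9% and 20.3% untreated and 13.4%, 15.5% and 16.0% with emetine, also overlapping (limma adjusted p-value of 0.949). No measure of *ARNTL* RNA passed its test.

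The PER genes encode the repressors whose accumulation closes the loop. *PER1* (chr17:8140472-8156506, minus strand) was at 45.8, 48.0 and 44.9 CPM untreated and at 48.5, 49.3 and 58.1 CPM with emetine. All emetine values were higher, but the log2 change of 0.17 ± 0.10 did not pass (edgeR adjusted p-value of 0.328). Its fraction new was 25.0%, 27.3% and 30.7% untreated and 21.3%, 19.1% and 19.6% with emetine. These groups did not overlap either, with a change in logit of −0.42 ± 0.21 and a limma adjusted p-value of 0.288. It became 0.0238 without untreated replicate 1, where 23.5% of all genes were lower, in place of 4.83%. The unlabeled RNA of *PER1* was 33.5 ± 2.07 CPM untreated and 41.6 ± 4.48 CPM with emetine (log2 change of 0.31, limma adjusted p-value of 0.144). Labeled *PER1* RNA was 11.45, 13.1 and 13.8 CPM untreated and 10.3, 9.42 and 11.40 CPM with emetine. All emetine values were lower, as in 11.3% of all genes. The log2 change of −0.29 ± 0.24 did not pass (limma adjusted p-value of 0.690).

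*PER2* (chr2:238244044-238290102, minus strand), the partner of CRY proteins in the repressive complex, was at 10.0, 9.62 and 9.67 CPM untreated. With emetine it was at 13.95, 13.3 and 18.7 CPM, each above all untreated libraries. The log2 change of 0.64 ± 0.15 was as large as that of *BHLHE40*, but its edgeR adjusted p-value was 0.0649. *PER2* passed with the DESeq2 Wald test (0.00698), without a filter on counts (0.0421), with length and GC trends removed (log2 change of 0.48, 0.022) and without emetine replicate 3 (log2 change of 0.48, 0.00877). In that order, these settings raised 6.59%, 2.7%, 5.45% and 10.1% of all genes. Its fraction new was 46.4%, 52.5% and 57.3% untreated and 39.8%, 38.0% and 36.8% with emetine, without overlap. The change in logit of −0.56 ± 0.23 had a limma adjusted p-value of 0.157, and 0.00815 without untreated replicate 1, where 23.5% of all genes were lower. Unlabeled *PER2* RNA was 5.36, 4.57 and 4.13 CPM untreated and 8.40, 8.23 and 11.8 CPM with emetine. It rose by a log2 change of 0.93 ± 0.18 (limma adjusted p-value of 0.0162), with p-values of 0.0793 without untreated replicate 2 and 0.0989 without untreated replicate 3. Labeled *PER2* RNA was 5.07 ± 0.452 CPM untreated and 5.82 ± 0.944 CPM with emetine (limma adjusted p-value of 0.863).

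*PER3* (chr1:7784291-7845177, plus strand), the least essential PER gene for rhythms in mice, had the lowest untreated level of the 10 per kilobase. It was at 4.87, 4.58 and 4.29 CPM untreated and at 5.48, 5.41 and 8.14 CPM with emetine (log2 change of 0.46 ± 0.20, edgeR adjusted p-value of 0.220). Its change was 0.25 without emetine replicate 3. With 91 to 217 reads a library it missed the minimum for the fraction new test. The fraction new ran from 11.6% to 33.0% untreated and from 11.3% to 14.4% with emetine, and a two-sided exact permutation test gave p = 0.3, where 0.1 is the smallest p that 3 against 3 libraries allow.

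The CRY genes encode the stronger repressors of the loop. *CRY1* (chr12:106991364-107093549, minus strand) was at 44.2, 44.4 and 43.0 CPM untreated and at 48.4, 43.96 and 55.1 CPM with emetine. The groups overlapped, with a log2 change of 0.16 ± 0.10 (edgeR adjusted p-value of 0.354). Its fraction new was 5.22%, 8.51% and 10.4% untreated and 7.79%, 7.20% and 8.15% with emetine, and also overlapped (limma adjusted p-value of 0.995).

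*CRY2* (chr11:45847118-45883248, plus strand) was at 20.8, 21.4 and 20.2 CPM untreated and at 26.5, 29.4 and 30.8 CPM with emetine. Every emetine-treated library was above every untreated one. *CRY2* rose by a log2 change of 0.47 ± 0.10 with an edgeR adjusted p-value of 0.0471. That call was lost without untreated replicates 1, 2 or 3 (adjusted p-values of 0.220, 0.194 and 0.213) and without emetine replicates 1 or 2 (0.0762 and 0.0924). The p-value was 0.00431 without emetine replicate 3, where 10.1% of all genes were raised. Spike-in scaling (0.189) and DESeq2 size factors in the same test (0.0596) also ended the call of *CRY2*. The fraction new of *CRY2* was 28.9%, 52.7% and 47.8% untreated and 31.0%, 31.3% and 29.1% with emetine. Untreated replicate 1 lay with the emetine-treated libraries, and the limma adjusted p-value of 0.195 became 0.0038 without it, where 23.5% of all genes were lower. In all genes too, this library had the smallest share of new reads of the 6, at 7.84% against 9.19% to 11.7%, and its part in the result was not tested further. Unlabeled *CRY2* RNA was 14.8, 10.1 and 10.6 CPM untreated and 18.3, 20.2 and 21.9 CPM with emetine. It rose by a log2 change of 0.76 ± 0.16 (limma adjusted p-value of 0.0261), with p-values of 0.132 without untreated replicate 2 and 0.146 without untreated replicate 3. Labeled *CRY2* RNA was 6.01, 11.3 and 9.67 CPM untreated and 8.22, 9.21 and 8.97 CPM with emetine (limma adjusted p-value of 0.991).

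*BHLHE40* (chr3:4979437-4985323, plus strand), also called DEC1, is a repressor that occupies E-boxes, and its own promoter holds the E-box printed above. It was at 16.9, 14.1 and 14.7 CPM untreated and at 22.0, 21.5 and 27.8 CPM with emetine. No emetine-treated library was as low as an untreated one. *BHLHE40* rose by a log2 change of 0.64 ± 0.14 with an edgeR adjusted p-value of 0.0469. The p-value was 0.149, 0.226 and 0.217 without untreated replicates 1, 2 and 3, and 0.0799 and 0.0553 without emetine replicates 1 and 2. It was 0.00361 without emetine replicate 3, where the change was 0.52 and 10.1% of all genes were raised. Spike-in scaling (0.151) and DESeq2 size factors in the same test (0.0564) also ended the call. The fraction new of *BHLHE40* was 72.9%, 80.7% and 75.7% untreated and 53.6%, 52.3% and 54.4% with emetine. Most *BHLHE40* RNA was thus new in untreated cells, and about equal parts were new and old with emetine. The change in logit was −1.05 ± 0.25 with a limma adjusted p-value of 0.00462. It was 0.0958 without untreated replicate 2 and 0.0715, 0.0853 and 0.0532 without emetine replicates 1, 2 and 3. Unlabeled *BHLHE40* RNA was 4.59, 2.71 and 3.58 CPM untreated and 10.2, 10.3 and 12.7 CPM with emetine. It rose by a log2 change of 1.50 ± 0.19 (limma adjusted p-value of 0.00297), and stayed under 0.05 with each library left out in turn (at most 0.0267). Labeled *BHLHE40* RNA was 12.3, 11.4 and 11.1 CPM untreated and 11.8, 11.3 and 15.1 CPM with emetine, so these groups overlapped (log2 change of 0.12 ± 0.24, limma adjusted p-value of 0.910).

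*NR1D1* (chr17:40092793-40100589, minus strand) encodes REV-ERB alpha, the nuclear receptor that represses *ARNTL*. It was at 9.78, 6.59 and 9.91 CPM untreated and at 10.3, 9.98 and 11.1 CPM with emetine. The groups were adjacent and the log2 change of 0.26 ± 0.17 did not pass (edgeR adjusted p-value of 0.380). The fraction new of *NR1D1* was 56.8%, 52.5% and 60.4% untreated and 32.6%, 29.4% and 31.5% with emetine. The change in logit of −1.06 ± 0.23 had a limma adjusted p-value of 0.00135 and passed with each library left out (0.00259 to 0.0469). Unlabeled *NR1D1* RNA was 4.23, 3.13 and 3.92 CPM untreated and 6.93, 7.05 and 7.60 CPM with emetine. It rose by a log2 change of 0.86 ± 0.16 (limma adjusted p-value of 0.0116), with p-values of 0.0616 and 0.0512 without untreated replicates 2 and 3. Labeled *NR1D1* RNA was 5.55, 3.46 and 5.99 CPM untreated and 3.35, 2.93 and 3.50 CPM with emetine. These overlapped at the lowest untreated library, with a log2 change of −0.52 ± 0.26 (limma adjusted p-value of 0.407).

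*NR1D2* (chr3:23945286-23980617, plus strand) encodes the related receptor REV-ERB beta. It was at 39.1, 32.7 and 31.3 CPM untreated and at 43.6, 36.0 and 61.9 CPM with emetine. The groups overlapped and the highest value was again emetine replicate 3 (log2 change of 0.45 ± 0.19, edgeR adjusted p-value of 0.213, and 0.21 without that library). Its fraction new was 16.3%, 21.6% and 23.5% untreated and 20.8%, 22.6% and 21.0% with emetine (limma adjusted p-value of 0.925). The labeled RNA of *NR1D2* did not overlap between the groups, at 6.38, 7.06 and 7.35 CPM untreated and 9.05, 8.15 and 13.0 CPM with emetine, as was so in this direction for 3.31% of all genes. The log2 change of 0.48 ± 0.25 did not pass (limma adjusted p-value of 0.413).

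*DBP* (chr19:48630030-48637379, minus strand), a PAR bZIP activator of output genes and a direct target of the BMAL1 and CLOCK pair, had no detectable change in level. It was at 19.3, 14.7 and 14.1 CPM untreated and at 18.7, 16.7 and 12.8 CPM with emetine (log2 change of 0.01 ± 0.18, edgeR adjusted p-value of 0.988), and the estimate turned to −0.02 with DESeq2 size factors. The fraction new of *DBP* was 19.9%, 22.7% and 25.3% untreated and 8.86%, 13.3% and 11.7% with emetine. It was lower in all emetine-treated libraries, with a change in logit of −0.84 ± 0.21 and a limma adjusted p-value of 0.00700. Leaving out untreated replicate 2 (0.0725) or 3 (0.0737), or the first emetine-treated library (0.195), ended that call. Labeled *DBP* RNA was 3.84, 3.35 and 3.56 CPM untreated and 1.66, 2.23 and 1.50 CPM with emetine. All emetine values were lower, as in 11.3% of all genes, with a log2 change of −0.84 ± 0.27. The limma adjusted p-value of 0.106 did not pass, and was 0.0242 without untreated replicate 1, where labeled RNA was lower in 16.1% of all genes. Unlabeled *DBP* RNA was 12.5 ± 2.65 CPM untreated and 14.3 ± 2.87 CPM with emetine (limma adjusted p-value of 0.523).

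**Figure D5:**
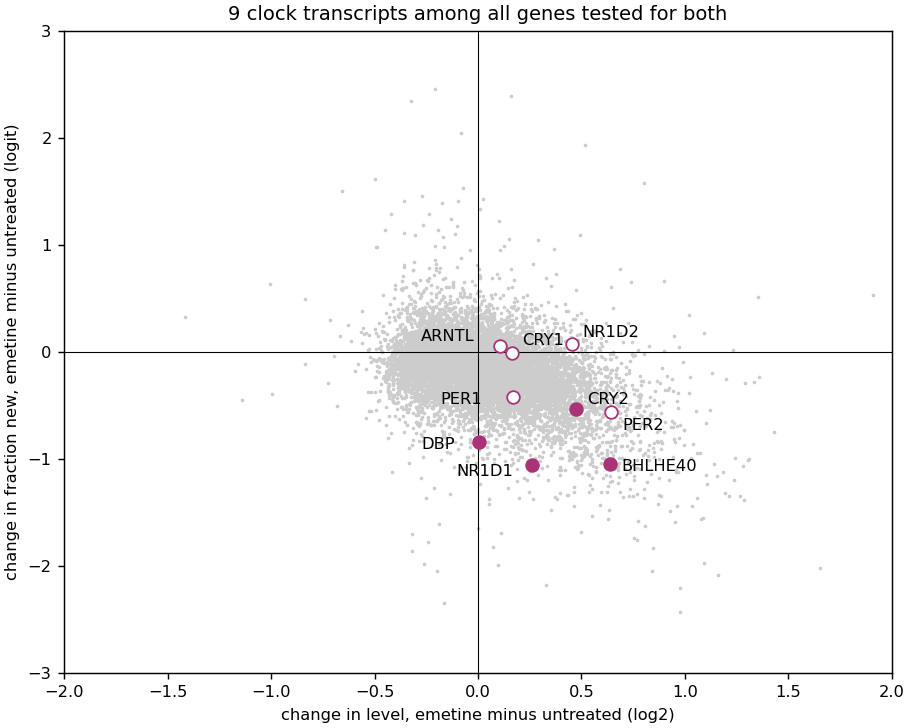
Change in level (log2) against change in fraction new (logit), emetine minus untreated, for the 10763 genes tested for both (gray; 4 lie outside the axes) and 9 clock transcripts (filled where either test passed, open otherwise). *BHLHE40* lies at 0.64 and −1.05, *NR1D1* at 0.26 and −1.06 and *DBP* at 0.01 and −0.84, whereas *NR1D2*, *CRY1* and *ARNTL* lie near 0 in fraction new.

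A wider list of 36 clock-associated genes was taken from textbook knowledge, also with earlier results of these data known. All 36 were listed in the table. For level, 2 of 34 tested were raised, where 2.65% of all genes were, and 0 lowered. For fraction new, 1 of 28 was lower, a share under the 4.83% of all genes, and 0 were higher. The medians were 0.14 (log2) and −0.19 (logit), against 0.03 and −0.16 over all genes. *KLF10*, a zinc finger repressor that responds to growth factors, rose from 5.88, 7.50 and 8.54 CPM untreated to 16.6, 18.0 and 24.5 CPM with emetine. Its log2 change of 1.43 ± 0.19 had an edgeR adjusted p-value of 0.0104, which was 0.0904, 0.0864 and 0.0644 without untreated replicates 1, 2 and 3. *KLF10* was also the single gene of the list whose labeled RNA passed, from 4.11, 6.22 and 7.96 CPM to 11.2, 12.9 and 18.7 CPM (limma adjusted p-value of 0.00112, but 0.0604 without untreated replicate 2 and 0.239 without emetine replicate 3).

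*NFIL3*, the repressor that competes with *DBP* at D-boxes, was at 15.5, 14.5 and 16.1 CPM untreated and at 21.1, 23.0 and 21.2 CPM with emetine. It rose by a log2 change of 0.50 ± 0.11 (edgeR adjusted p-value of 0.0447). Among the single libraries left out, the call was kept only without emetine replicate 3 (0.00203, and 0.0956 to 0.228 otherwise), where 10.1% of all genes were raised. The fraction new of *NFIL3* was 70.2%, 82.1% and 80.9% untreated and 53.1%, 53.9% and 63.7% with emetine. It was lower with a limma adjusted p-value of 0.0104, which rose to 0.135 and 0.116 without untreated replicates 2 and 3 and to 0.176 and 0.15 without emetine replicates 1 and 2. Unlabeled RNA rose in 3 of the 28, where 7.3% of all genes rose, namely in *KLF10*, *NFIL3* and *NOCT*. That of *NFIL3* had a log2 change of 1.35 ± 0.21 and a limma adjusted p-value of 0.00679, which was 0.0527 without untreated replicate 3. *NOCT*, a gene for a phosphatase under clock control, was named after its values were seen (log2 change of 1.12 ± 0.21, limma adjusted p-value of 0.0153, and 0.0797 and 0.0994 without untreated replicates 2 and 3). The kinase genes *CSNK1D* and *CSNK1E* and the ligase genes *BTRC* and *FBXW11*, whose products act on PER proteins, passed none of the tests they had enough reads for.

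Reads that cross a splice junction made up 36.5% ± 8.39 of *PER1*, 53.1% ± 6.47 of *CRY1* and 55.7% ± 1.74 of *ARNTL* reads in untreated cells, against 6.82% ± 3.19 in *BHLHE40* and 4.74% ± 2.22 in *NR1D2*. The median over all genes tested for level was 25.4%. *CRY2* (13.0% ± 1.44), *PER2* (15.2% ± 1.59) and *DBP* (24.0% ± 2.42) had means below it, and *PER3* (28.5% ± 1.64) and *NR1D1* (38.4% ± 8.56) above. Few spliced reads thus enter the next setting for *BHLHE40* and *CRY2*. With spliced reads alone, a setting chosen after seeing the data, *BHLHE40* had a log2 change of 0.69 and *CRY2* one of 0.58, neither of which passed (edgeR adjusted p-value of 0.564 for both). In that setting, 2 of all genes tested were raised. Of the genes in the count table, those that overlap a member in GENCODE 44 all lie on the opposite strand, namely over *PER3* (*UTS2*), *BHLHE40* (*BHLHE40-AS1*), *NR1D1* (*THRA*), *NR1D2* (*NKIRAS1*) and *DBP* (*SPHK2*). Annotated genes that the count table does not list overlap *PER1* on the same strand, *ARNTL* on both strands, and *PER2*, *PER3* and *CRY1* on the opposite strand. Their reads were not analysed here. *THRA* was at 30.0 ± 1.01 CPM untreated and 27.6 ± 3.30 CPM with emetine, whereas *NR1D1* was at 8.76 ± 1.88 and 10.5 ± 0.582 CPM. The library kit keeps strand, the strand setting of the counting is not given in the sources used here, and 0 reads were marked as shared between a clock gene and another gene.

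The libraries without s4U, 1 for each treatment, gave values with counting intervals only. *BHLHE40* was at 15.7 CPM (exact Poisson 95% interval of 14.1 to 17.4) untreated and 27.3 CPM (25.5 to 29.2) with emetine. *CRY2* was at 24.4 CPM (22.4 to 26.5) and 28.8 CPM (26.9 to 30.7), and *PER2* at 10.5 CPM (9.25 to 11.9) and 12.8 CPM (11.6 to 14.1). The intervals of *PER2* overlapped. Intervals lay apart and higher with emetine in 3 of 10 members, *BHLHE40*, *CRY2* and *PER1* (44.5 and 51.01 CPM), as in 17.9% of all genes. They lay apart and lower in 2, *CRY1* (46.3 and 32.2 CPM) and *NR1D2* (42.8 and 37.9 CPM), as in 19.7% of all genes. *CRY1* and *NR1D2* thus went the other way than their means with s4U. These pairs have no replicate check. Of 12528 reads of the clock genes in these libraries, 11 (0.0878%) carried at least 2 conversions. Of those 11, 6 were among the 1091 reads of *CRY1* in the untreated library (0.550%). No such read was seen in 16 of 20 pairs of gene and library, which allows a share of up to 2.68% in the pair with the fewest reads.

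At 2 h, the authors give a mean of normalized counts over all libraries, untreated and emetine-treated together, without values for single libraries. Per the study's methods, the 2 h libraries were made with a total RNA kit and the 1 h libraries with an mRNA kit. The 2 h means are therefore not comparable with the untreated levels at 1 h. The authors' mean was 424 per kb for *NR1D2* and 415 per kb for *CRY1*, and 246 per kb for *BHLHE40*. It was 141 per kb for *PER1*, 101 for *CRY2*, 86.2 for *PER2*, 50.1 for *PER3* and 47.7 for *ARNTL*. *NR1D1* and *DBP* were not listed. No comparison between doses was made, since the other columns hold the authors' own comparisons.

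Over the 8 libraries of the 1 h experiment, the gene whose log2 CPM was most like that of *BHLHE40* was *SLC9A8* (Pearson r = 0.991 among 13775 genes), and the gene most like *CRY2* was *ZNF780A* (r = 0.988). *SEC31B* was nearest to *NR1D1* (r = 0.981) and *TMEM187* to *DBP* (r = 0.979). *BHLHE40* and *CRY2* had 420 and 449 genes with r above 0.9, but *NR1D1* and *DBP* had 14 and 23. The 8 points share treatment and depth, so these values are a description.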

How the data were processed

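TL-seq libraries of HEK-293T cells fell into groups by emetine dose, s4U and time, as the labels give them. For 1 h, the authors trimmed reads with cutadapt, mapped them to hg38 with hisat-3n and deposited a bam2bakR table of whole counts of reads, split by gene, by conversions and by T positions per read (the other values used). No normalization was applied to these deposited counts, and the annotation is not given in the sources used here. For 2 h, the signal values deposited are the authors' means of counts normalized to ERCC spike-ins. The log2 fold changes, standard errors and p-values in those tables are the authors' own comparisons and were not used, nor were the 2 h spike-in size factors.

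Counts were summed per gene and compared with edgeR 4.0.16 (TMM, quasi-likelihood test, R 4.3.3) where a gene had over 100 counts in all 6 libraries together. The fraction new was the weight of a 2-component binomial mixture (scipy 1.17.1 and numpy 2.4.6 under Python 3.11.15; tables with pandas 2.3.3), with the background rate from the library without s4U and a new-read rate for each library. It has 95% profile likelihood intervals. Its logit, bounded between 0.001 and 0.999, and log2(CPM + 0.5) of the labeled and of the unlabeled part went into limma 3.58.1 (trend, robust) where all 6 libraries had 100 reads or more. Fold changes on that scale understate low genes. The study used bakR for this step, which was not run here. Adjusted p-values are Benjamini-Hochberg over all genes tested. Half-life is −ln 2 times 1 h over ln(1 − fraction new). Without molecular identifiers, intervals cover counting error only. Depth gave 91 to 1976 reads per clock gene and library with s4U.

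Symbols were matched to GENCODE 44 (GRCh38, the same build as hg38): 17147 by symbol, 1167 by an older symbol, 908 not. Figures were drawn with matplotlib 3.10.9. Alternatives were DESeq2 1.42.0, other scalings and filters, trends on length and GC content (mgcv 1.9.3), other pseudocounts, rates and read minimums, a replicate block and each library left out. On simulated data, the test of level recovered 70.0% of genes changed by 0.65 and 100.0% of those changed by 2 (log2) among 13705, with 3.41% of calls false. That simulation changed only genes with high counts and drew libraries independently, without the length trend of emetine replicate 3. Its rates may not hold for these libraries or for low genes. For fraction new, 83.5% of genes changed by 1.0 (logit) among 3000 were found, and 3.47% of calls were false. The fraction new simulation also drew libraries independently, with the same spread for every gene and with the conversion rates known. Its rates may likewise not hold for these libraries. The members and lists were chosen with earlier results of these data known. Named genes are the 10 members, the genes of the wider list that passed for level or fraction new, genes that overlap a member, and the gene most correlated with each member that passed either test.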

Additional observations from a re-analysis of the deposited data

How the results depend on the processing

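Of 562 alternative values of single named genes, 466 kept direction and side of the threshold, 58 lost the call, 16 gained it and 22 changed sign. The cause of these changes was not tested, except that fewer libraries or genes enter some fits. For level, 365 genes were raised and 6 lowered. These became 820 and 156 with the DESeq2 Wald test, 60 and 0 with spike-in scaling, 751 and 687 with length and GC trends removed, and 2 and 0 with spliced reads only. Clock genes raised for level fell from 2 to 0 with DESeq2 size factors in edgeR, spike-in scaling and spliced reads. *DBP* turned to −0.0166 with DESeq2 size factors and −0.0169 with the Wald test. For fraction new, 23 genes were higher and 520 lower. These became 14 and 298 with a minimum of 50 reads, 14 and 227 with 500, and 0 and 0 with spliced reads, and 126 were higher with centering, which turned *CRY1* to 0.12. Clock genes lower for fraction new fell from 3 to 0 with a minimum of 500 reads, which *BHLHE40*, *NR1D1* and *DBP* missed, and to 0 with spliced reads, where *BHLHE40* was not fitted. One new-read rate moved the genes with lower labeled RNA from 68 to 105. With one new-read rate, half-lives moved by less than 1 SD, and with each untreated library left out that of *PER3* ran from 2.34 to 4.28 h.

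The labels do not say whether libraries of the same number were made together. Same-numbered deviations correlated at 0.06, −0.01 and −0.17 in level and 0.06, 0.00 and 0.02 in fraction new. Differently numbered ones ran from −0.23 to 0.15 in level. These correlations cannot decide it, since libraries made together need not deviate together. With the replicate block, genes raised for level were 75 and lowered 3, genes with a higher fraction new 40, and genes with more unlabeled RNA 350. Under the block, clock genes raised were 0 for level and 2, in place of 4, for unlabeled RNA.

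With each library left out in turn, genes raised for level were 4 (untreated replicate 1) to 1367 (emetine replicate 3) and lowered 0 to 525, and clock genes raised were 0 to 3. Higher fraction new held for 10 to 41 genes, lower for 94 to 2524 (untreated replicate 1), and clock genes lower were 1 to 6. Labeled RNA was higher in 13 to 64 genes, lower in 2 to 1733, and lower in 0 to 1 clock genes. Unlabeled RNA was higher in 271 to 1476 genes, lower in 4 to 383, and higher in 1 to 4 clock genes. Sign changes were seen in level for *DBP* (−0.12 to 0.16), in fraction new for *CRY1* (−0.22 to 0.15), *NR1D2* (−0.0601 to 0.17) and *ARNTL* (−0.10 to 0.26), and in labeled RNA for *CRY1* (−0.11 to 0.30), *CRY2* (−0.24 to 0.19), *BHLHE40* (−0.0101 to 0.19), *ARNTL* (−0.0193 to 0.27), *NFIL3* (−0.0171 to 0.11) and *NOCT* (−0.0211 to 0.34). Depth limits *PER3*, with 91 reads in untreated replicate 3, and leaves changes of labeled RNA in low genes within their error.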
